A study of Danio rerio with 19 samples.

Results

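The genes described here encode 10 of the proteins that the liver releases into blood plasma. They were chosen by gene name: fga, fgb and fgg (the alpha, beta and gamma chains of fibrinogen), tfa (transferrin), cp (ceruloplasmin), rbp4 (retinol binding protein), serpina1 (alpha-1 antitrypsin), ambp (the precursor of alpha-1 microglobulin and bikunin), ahsg2 (a fetuin) and c9 (complement component C9). These are 10 of the 26507 genes listed in any deposited count table, and all 10 passed the filter on low counts in each comparison. Whole zebrafish larvae were sequenced for messenger RNA after exposure to atorvastatin at 1 µg/L (AVS high, 4 libraries) or 100 ng/L (AVS low, 4 libraries), or to afidopyropen at 1 µg/L (Afid high, 4 libraries) or 100 ng/L (Afid low, 3 libraries), and in a control named ERM in the labels (4 libraries), 19 libraries in all. Atorvastatin inhibits HMG-CoA reductase, the rate-limiting enzyme of cholesterol synthesis, and afidopyropen is used against sap-feeding insects, whose TRPV channels it targets. Strain, sex, larval age and the number of larvae per library are not given in the labels, nor is it said whether replicates are separate tanks or clutches, so p-values measure only how these libraries spread, and that spread may be technical.

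Hepatocytes make most of the plasma proteins of vertebrates, among them clotting factors, carriers, protease inhibitors and complement components. Their genes are switched on together when hepatocytes mature, under transcription factors of the HNF, FOXA and C/EBP families. In mammals, inflammation raises some of them through interleukin-6 and STAT3, such as fibrinogen, alpha-1 antitrypsin, ceruloplasmin and C9 (positive acute phase proteins), and lowers others, such as transferrin, fetuin-A and retinol binding protein (negative ones).

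Read counts were used for the 15 libraries other than Afid high, which held 8.63 to 18.6 M reads in genes. The 10 genes took 0.230% ± 0.0319 of those reads (SD, n = 15), between 0.140% in control replicate 2 and 0.280% in AVS high replicate 3. Control replicate 2 stood apart before any comparison: 9 of the 10 genes were at their lowest of 15 libraries there, while 15.5% of the 20144 genes tested were. It stood apart in both directions, as 13.6% of the genes tested, and 0 of the 10, were at their highest there. The same library had the lowest summed level of each list of liver secreted proteins, of hepatocyte enzymes, of intestine and of exocrine pancreas, and the highest of the neuron list. The comparisons of the 10 genes with the control, and the counts of gene lists, are therefore given with and without it. In a larva sequenced whole, fewer liver cells and less RNA per liver cell cannot be told apart.

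Levels per length, as the FPKM that the authors deposited, spanned 47.0-fold between the most and the least abundant of the 10 genes. Retinol binding protein led with a mean of 443 ± 149.6 FPKM (SD, n = 15) and a range of 282 to 793. Alpha-1 antitrypsin followed at 214 ± 44.5 FPKM and transferrin at 104 ± 23.1 FPKM (SD, n = 15 each). These levels place rbp4 at rank 158, serpina1 at rank 291 and tfa at rank 571 of 26507 genes by control mean FPKM. Next came c9 at 84.5 ± 19.8, fga at 72.0 ± 12.9, fgb at 51.7 ± 8.83 and fgg at 34.8 ± 7.71 FPKM (SD, n = 15 each). The lowest were ahsg2 at 24.8 ± 7.57, cp at 24.4 ± 6.66 and ambp at 9.44 ± 2.59 FPKM (SD, n = 15 each), and ambp ranked 5418 by control mean. Within libraries, rbp4 lay above serpina1, serpina1 above tfa, fga above fgb and cp above ambp in 15 of 15. The order held least for ahsg2 and cp, where ahsg2 lay higher in 8 of 15 libraries. Next was fgg over ahsg2, which held in 12 of 15. FPKM divides each gene by the same annotated length in every library, so this sameness does not test the lengths. Without length scaling, mean log2 counts per M reads were higher for tfa (8.97, annotated length 5009 bp) than for serpina1 (8.43, 1651 bp).

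**Figure D1:**
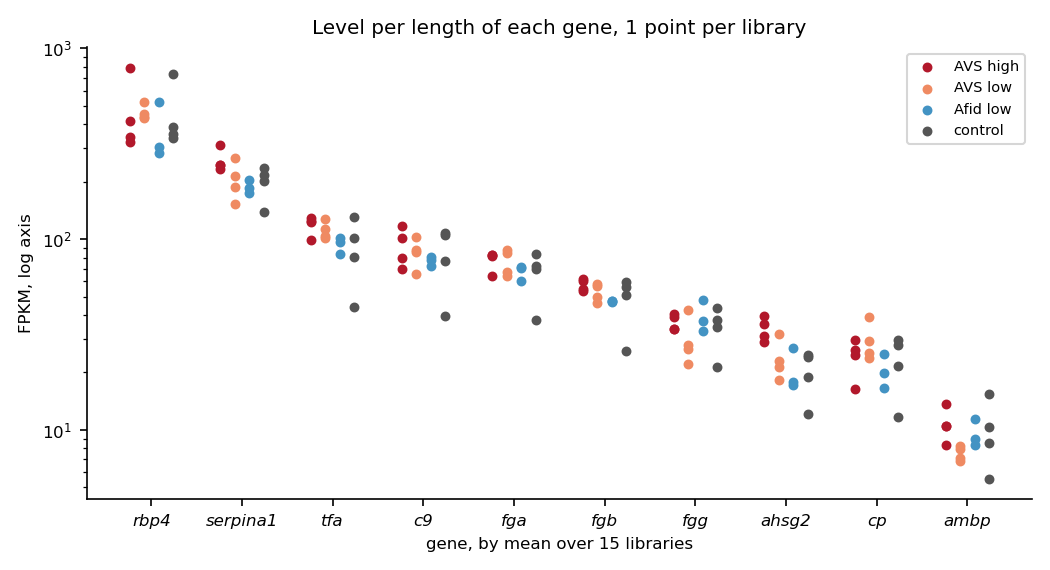
Deposited FPKM (log axis) of the 10 genes, ordered by their mean over 15 libraries, with 1 point per library coloured by group (AVS high, AVS low, Afid low and control from left to right within each gene). The means run from 443 FPKM for rbp4 to 9.44 FPKM for ambp, and the lowest point of 9 genes is a control library.

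Genes of the hepatocyte lists ranged from high levels to near 0 in these whole-larva libraries. The most abundant of the enzyme and marker list over the 15 libraries was bhmt, which remethylates homocysteine, at a mean of 1046 FPKM. Next were pck1, a gluconeogenic enzyme, at 902 FPKM and fabp10a, the liver fatty acid binding protein of fish, at 779 FPKM. At the low end of that list, otc averaged 1.80 FPKM and cps1 0.399 FPKM. Of the hepatocyte transcription factors, cebpb averaged 53.2 FPKM and cebpa 15.6 FPKM. The nuclear receptor hnf4a, which is also in the yolk syncytial layer list, was near 0 (0.0599 FPKM on average, 0 to 0.419). Whether its gene entry takes up all reads of hnf4a was not tested. Transferrin is made by the yolk syncytial layer of zebrafish embryos as well as by the liver, and apoa2 and apoa1b, the most abundant genes of that layer's list, averaged 1064 and 496 FPKM. The part of either tissue in the tfa values was not tested.

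Of the fibrinogen genes, fga and fgb lie next to each other on chromosome 1 and fgg lies apart. In the coordinates of the deposited tables, whose genome build is not given in the sources used here, fgb (ENSDARG00000008969) spans 10051763 to 10059496 on the plus strand. The fga gene (ENSDARG00000020741) spans 10063501 to 10071539 on the minus strand, so that their 3′ ends face each other across 4004 bp. The fgg gene (ENSDARG00000037281) lies at 25669799 to 25679383 on the minus strand, 15.6 Mb away.

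In the alpha chain gene fga, counts per M reads after TMM scaling (CPM) were 206, 250.5, 258 and 254 in AVS high, 274, 266, 210.0 and 201 in AVS low, 189, 221 and 218 in Afid low, against 218, 118, 228 and 259.7 in the control. The beta chain gene fgb had 123, 119, 137 and 137 CPM in AVS high, 128, 131, 103 and 112 in AVS low, 105, 106 and 106 in Afid low, against 114, 58.6, 127 and 133 in the control. All groups overlapped the control in both genes, and control replicate 2 lay far below every other library in each. The gamma chain gene fgg had 85.9, 77.9, 70.6 and 68.9 CPM in AVS high, 45.5, 57.4, 87.0 and 54.5 in AVS low, 98.2, 67.5 and 76.4 in Afid low, against 71.1, 44.2, 78.7 and 89.2 in the control. Here AVS low replicate 1, at 45.5 CPM, was nearly as low as control replicate 2, although the same library had the highest fga of all.

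The chains' proportions therefore differed between libraries more for fgg than for fgb. This comparison was chosen after the values were seen and is given without a test. The FPKM of fgb per FPKM of fga was 0.720 ± 0.0539 (SD, n = 15) and stayed between 0.650 and 0.834. The FPKM of fgg per FPKM of fga was 0.634, 0.472, 0.416 and 0.412 in AVS high, 0.253, 0.328, 0.629 and 0.411 in AVS low, 0.792, 0.463 and 0.531 in Afid low, against 0.496, 0.570, 0.524 and 0.522 in the control. The control libraries lay close together, at 0.528 ± 0.0309 (SD, n = 4), control replicate 2 included, while the exposed groups spread on both sides of them, at 0.484 ± 0.104 in AVS high (SD, n = 4), 0.405 ± 0.163 in AVS low (SD, n = 4) and 0.595 ± 0.173 in Afid low (SD, n = 3).

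**Figure D2:**
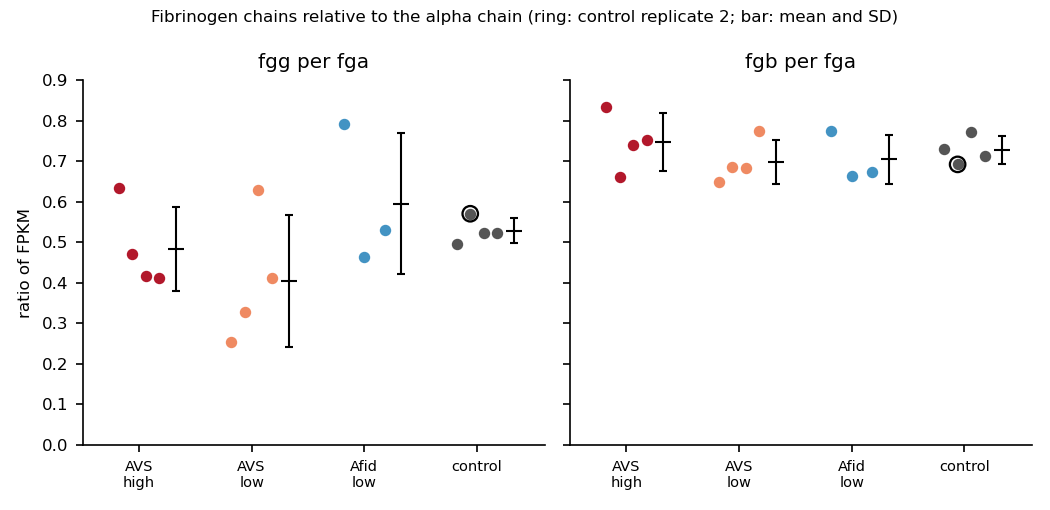
Ratio of deposited FPKM of fgg to fga (left) and of fgb to fga (right) in each library, with points per library, a bar for the mean and SD of each group, and a ring on control replicate 2. The fgb ratio stays between 0.650 and 0.834 in all 15 libraries, whereas the fgg ratio runs from 0.253 in AVS low replicate 1 to 0.792 in Afid low replicate 1.

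Among the carriers, transferrin (tfa, ENSDARG00000016771; chromosome 2, 16780643 to 16794710, plus strand) carries iron. Its CPM were 508, 623, 626 and 610.2 in AVS high, 563, 509, 632 and 521 in AVS low, 503, 478 and 414 in Afid low, against 401, 219, 657 and 503 in the control. The control spanned both the lowest and the highest of the 15 values, so no exposed group stood clear of it. Every AVS low library lay above every Afid low library, as in 3.77% of the 20144 genes tested. Ceruloplasmin (cp, ENSDARG00000010312; chromosome 22, 38173960 to 38199988, plus strand), a copper protein that oxidises iron, had 60.02, 85.0, 95.1 and 105 CPM in AVS high, 138, 90.4, 84.1 and 104 in AVS low, 59.3, 89.0 and 70.7 in Afid low, against 77.2, 41.5, 101 and 105 in the control. All groups overlapped, with AVS low replicate 1 the highest. A ribosomal RNA gene of the same strand is annotated inside cp, at 38185763 to 38185883, and how reads in that stretch were counted is not given in the sources used here.

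Retinol binding protein (rbp4, ENSDARG00000101199; chromosome 12, 5115929 to 5120339, minus strand), which carries vitamin A from the liver, correlated least with the mean of the other 9 genes over 15 libraries, whereas fgg did so without control replicate 2. It had 667, 518, 1261 and 501 CPM in AVS high, 673, 827, 704 and 683 in AVS low, 818, 440.1 and 473 in Afid low, against 531, 559, 612 and 1149.9 in the control. Single libraries of AVS high and of the control stood at about the same high level. Control replicate 2, the lowest library for the other 9 genes, was not the lowest here. Its log2 CPM of rbp4 lay below the mean of the 15 libraries. The part of the liver in the rbp4 values of whole larvae was not tested.

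Of the protease inhibitors, alpha-1 antitrypsin (serpina1, ENSDARG00000090286; chromosome 20, 10544100 to 10547411, plus strand), an inhibitor of neutrophil elastase in mammals, had 414, 494, 409 and 378 CPM in AVS high, 434, 308, 351 and 252 in AVS low, 306, 332 and 284 in Afid low, against 331, 229, 360.2 and 386 in the control. One AVS high library, replicate 4, lay within the control's range and the other 3 lay above it. A paralog, serpina1l, ends 2902 bp before serpina1 on the same strand, and how reads shared by the pair were counted is not given in the sources used here.

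Bikunin, one of the proteins cut from the ambp precursor (ENSDARG00000004296; chromosome 10, 10801564 to 10824286, plus strand), inhibits serine proteases. The ambp gene had 21.8, 25.9, 27.2 and 34.1 CPM in AVS high, 20.8, 18.3, 20.04 and 17.5 in AVS low, 29.0, 22.7 and 21.1 in Afid low, against 21.7, 14.2, 26.6 and 39.0 in the control. The AVS low libraries were the most alike and all lay inside the wide range of the control. They lay below every AVS high library, as in 0.973% of the 20144 genes tested. They also lay below every Afid low library, as in 3.67%.

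Fetuins are secreted glycoproteins that in mammals bind calcium phosphate and keep it from precipitating. The fetuin gene ahsg2 (ENSDARG00000069293; chromosome 2, 10134345 to 10141741, plus strand) had 47.5, 56.2, 43.4 and 52.1 CPM in AVS high, 34.0, 31.7, 46.9 and 27.2 in AVS low, 26.5, 39.7 and 25.3 in Afid low, against 27.9, 18.0, 36.0 and 36.5 in the control. All AVS high libraries lay above all control libraries, as in 2.25% of the 18929 genes tested. One AVS low library, replicate 4, lay among the AVS high libraries.

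Complement C9 (c9, ENSDARG00000016319; chromosome 5, 32345187 to 32355289, plus strand) forms the pore of the membrane attack complex. It had 167, 229, 278 and 183 CPM in AVS high, 203, 199.98, 237 and 154 in AVS low, 181, 187 and 167 in Afid low, against 178, 92.5, 249 and 249 in the control. Every group overlapped the control. An antisense gene, BX510649.1, spans c9, and its own count was 0 to 7 reads per library where c9 had 1410 to 3990.

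**Figure D3:**
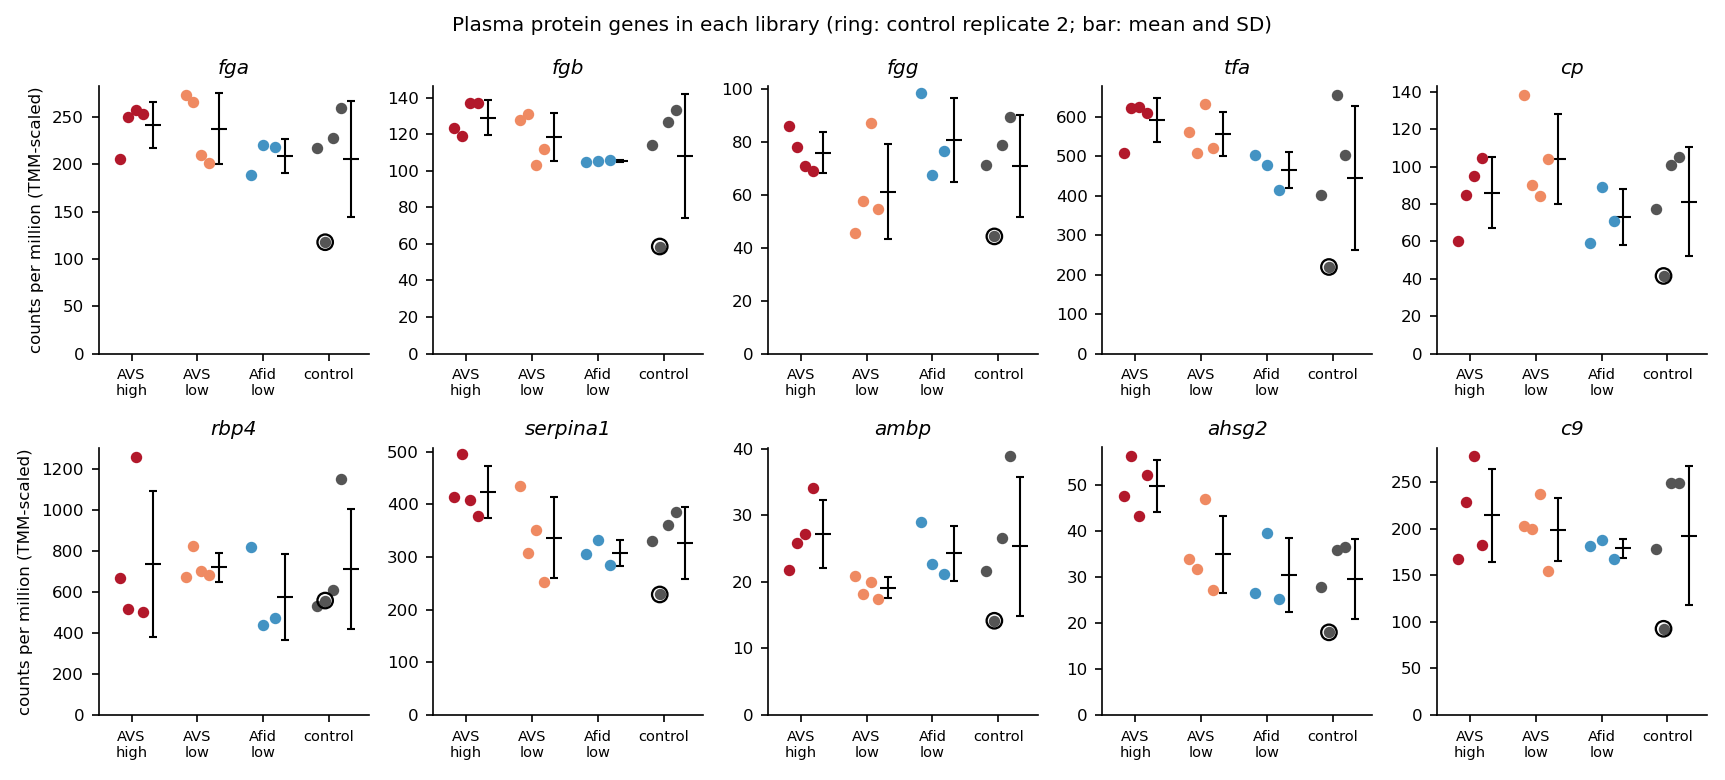
TMM-scaled counts per M reads (CPM, linear axis from 0) of each gene in every library, with points per library for AVS high, AVS low, Afid low and control, a bar for the mean and SD, and a ring on control replicate 2. The ringed library is the lowest for every gene except rbp4, and only ahsg2 has an exposed group, AVS high, wholly above the control. Of the 18929 genes tested, 2.25% lay wholly above the control in AVS high.

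In AVS high, none of the 10 genes passed the test against the control. All 10 had a log2 fold change above 0, as 49.8% of the 18929 genes tested did, with a median of 0.20 against −0.00 over all genes. The fetuin ahsg2 differed most, at 49.8 ± 5.59 CPM in AVS high and 29.6 ± 8.70 CPM in the control (SD, n = 4 each), which is a log2 difference of 0.75 (SE 0.21, 95% interval 0.29 to 1.21). Its adjusted p by edgeR's quasi-likelihood test with Benjamini-Hochberg adjustment was 0.410, and it ranged from 0.130 to 0.923 over the alternative settings. It was the only one of the 10 genes whose groups did not overlap, where 2.25% of all genes lay wholly higher and 2.95% wholly lower in AVS high.

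The other inhibitors, carriers and clotting genes differed less in AVS high. Alpha-1 antitrypsin averaged 424 ± 49.8 CPM in AVS high and 326 ± 68.9 CPM in the control (SD, n = 4 each), at a log2 difference of 0.38 (SE 0.19, 95% interval −0.02 to 0.78; edgeR adjusted p = 0.591). Transferrin stood at 0.41 (SE 0.27, 95% interval −0.16 to 0.99), and fgb and fga were at 0.26 and 0.23. Those of c9, ambp, fgg, cp and rbp4 lay between 0.05 and 0.16, and the interval of rbp4 ran from −0.65 to 0.74. Over all genes edgeR called 0 of 18929, with a smallest adjusted p of 0.138. Its unadjusted p was under 0.05 for 8.75% of genes and for 1 of the 10, ahsg2. DESeq2 called 61 genes and limma-voom 0, and none of the 10 was among them.

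Leaving out control replicate 2 removed most of the shared shift in AVS high. Then 5 of the 10 log2 fold changes were above 0 and their median was −0.01. The fetuin ahsg2 remained at 0.58 and serpina1 at 0.24, tfa was at 0.19, and fgb and fga were at 0.05 and 0.04. Without that library, exocrine pancreas genes were also above 0 in AVS high, in 14 of 15 tested, with a median log2 fold change of 0.50, and 0 of them passed the test. With it the count was the same and the median was 0.82. Their summed level was 13598, 8186, 24952 and 16054 CPM in AVS high, against 8891, 2609, 9383 and 19153 CPM in the control, so that the groups overlapped with and without control replicate 2. Their part in the values of the plasma protein genes was not tested.

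In AVS low, none of the 10 passed either, and none had an unadjusted p under 0.05, where 10.1% of 19267 genes did. No gene of the 10 lay wholly above or below the control in AVS low, where 2.12% and 2.27% of all genes did. The log2 fold change was above 0 for 8 of 10 genes (49.2% of all genes), with a median of 0.09 against −0.01 over all genes. The widest differences were in opposite directions. The ambp gene averaged 19.2 ± 1.55 CPM in AVS low and 25.4 ± 10.4 CPM in the control (SD, n = 4 each), at a log2 difference of −0.40 (SE 0.26, 95% interval −0.96 to 0.15; edgeR adjusted p = 0.576). Ceruloplasmin averaged 104 ± 24.2 CPM in AVS low and 81.2 ± 29.1 CPM in the control (SD, n = 4 each), at a log2 difference of 0.36 (SE 0.26, 95% interval −0.21 to 0.93; edgeR adjusted p = 0.625).

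Transferrin was at 0.32, ahsg2 at 0.24, fga at 0.21, fgb at 0.13 and fgg at −0.21 in AVS low, and serpina1, c9 and rbp4 were between 0.02 and 0.05. Without control replicate 2 the median was −0.08 and 4 of 10 genes were above 0, with ambp at −0.61 and fgg at −0.38. With the replicate number as a block the median was 0.35, and 8 of 10 genes were above 0. Control replicate 3 and AVS low replicate 5, without a same-numbered library in that fit, then added nothing to the difference. Over all genes edgeR called 0 of 19267 (smallest adjusted p 0.351), limma-voom 0 and DESeq2 45, none of them among the 10.

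In Afid low, none of the 10 genes passed the test against the control. The log2 fold change was above 0 for 4 of 10 genes (50.8% of all genes) with a median of −0.04, and 0 of the 10 had an unadjusted p under 0.05, where 7.05% of 19399 genes did. Again none lay wholly above or below the control, where 4.56% and 4.29% of all genes did. Retinol binding protein averaged 577 ± 209 CPM in Afid low (SD, n = 3) and 713 ± 293 CPM in the control (SD, n = 4), which put it at −0.30 on the log2 scale (SE 0.31, 95% interval −0.97 to 0.38; edgeR adjusted p = 0.830). The gamma fibrinogen chain was at 0.20 (SE 0.23, 95% interval −0.30 to 0.70; edgeR adjusted p = 0.843).

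The other 8 genes lay between −0.14 for cp and 0.08 for tfa in Afid low. This result rested on single control libraries: without control replicate 2 the median was −0.22 and 1 gene of 10 was above 0, and without control replicate 4 it was 0.13 and all 10 were. With the replicate number as a block the median turned to 0.15 and 9 of 10 were above 0. Control replicate 3, without a same-numbered Afid low library, then added nothing to the difference. Over all genes edgeR called 0 of 19399 (smallest adjusted p 0.338), limma-voom 0 and DESeq2 15, none of them among the 10.

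For Afid high, the fold changes and p-values of the authors' deposited table were read, with no values per library. There, 8 of the 10 genes had a log2 fold change above 0 in the authors' deposited table, as 53.1% of its 25853 genes did. The largest in the authors' deposited table was again that of ahsg2, at 0.33, followed by tfa at 0.22, and the lowest were rbp4 at −0.20 and ambp at −0.12. The smallest p of the 10 in the authors' deposited table was 0.211, and 7.03% of all its genes had a p under 0.05. All exposures are set against the same 4 control libraries. The value of ahsg2 was 0.75 in AVS high and 0.24 in AVS low, 0.33 in Afid high in the authors' deposited table and 0.05 in Afid low. With 1 library left out at a time, it ran from 0.58 to 0.87 in AVS high, 0.062 to 0.36 in AVS low and −0.18 to 0.18 in Afid low. The Afid high value could not be recomputed without single libraries.

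**Figure D4:**
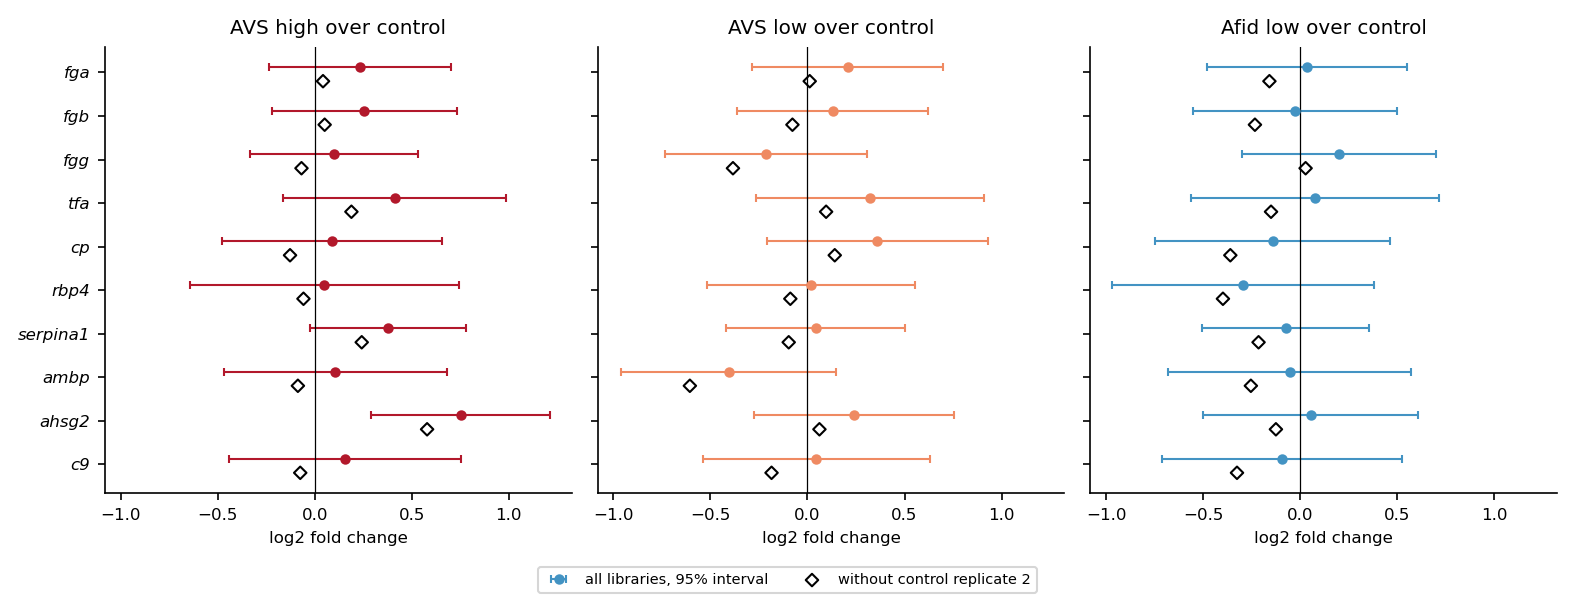
Log2 fold change over the control of each gene in AVS high, AVS low and Afid low, with filled points and 95% intervals from edgeR for all libraries, and open diamonds without control replicate 2. Only the interval of ahsg2 in AVS high, 0.29 to 1.21, lies clear of 0, and the diamonds lie left of the points in every panel. Over all genes tested, 8.75% had an unadjusted edgeR p under 0.05 in AVS high, 10.1% in AVS low and 7.05% in Afid low.

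The atorvastatin doses were set against each other in 1 fit of the 15 libraries. In AVS high over AVS low, 9 of 10 genes had a log2 fold change above 0 (51.1% of 20144 genes), with a median of 0.12. With the replicate number as a block, 5 of 10 were above 0 and the median was −0.01. AVS low replicate 5, the only library of its number, then added nothing to the difference. The fetuin ahsg2 averaged 49.8 ± 5.59 CPM in AVS high and 34.9 ± 8.43 CPM in AVS low (SD, n = 4 each), at a log2 difference of 0.51 (SE 0.22, 95% interval 0.05 to 0.97; edgeR adjusted p = 0.893). The ambp gene averaged 27.2 ± 5.14 CPM in AVS high and 19.2 ± 1.55 CPM in AVS low (SD, n = 4 each), at a log2 difference of 0.51 (SE 0.24, 95% interval 0.02 to 1.00; edgeR adjusted p = 0.903).

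Only ambp did not overlap between the doses, where 0.973% of genes lay wholly higher and 1.05% wholly lower in AVS high. Both ambp and ahsg2 had an unadjusted p under 0.05, as 5.44% of all genes did, and neither passed after adjustment. The other values were 0.33 for serpina1, 0.31 for fgg, −0.27 for cp and between 0.03 and 0.12 for the remaining genes. Over all 20144 genes edgeR called 0 (smallest adjusted p 0.364), limma-voom 0 and DESeq2 5, none of them among the 10.

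At the shared dose of 100 ng/L, AVS low was compared with Afid low in the same fit. Here 8 of 10 genes were above 0 (53.3% of all genes), with a median of 0.18. Ceruloplasmin averaged 104 ± 24.2 CPM in AVS low (SD, n = 4) and 73.0 ± 14.98 CPM in Afid low (SD, n = 3), at a log2 difference of 0.51 (SE 0.27, 95% interval −0.06 to 1.08; edgeR adjusted p = 0.693). The fgg gene averaged 61.1 ± 18.0 CPM in AVS low (SD, n = 4) and 80.7 ± 15.8 CPM in Afid low (SD, n = 3), at a log2 difference of −0.40 (SE 0.23, 95% interval −0.88 to 0.08; edgeR adjusted p = 0.693).

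Transferrin lay wholly higher in AVS low, where 3.77% of genes did, at a log2 fold change of 0.26. The ambp gene lay wholly lower, where 3.67% of genes did, at −0.34. None of the 10 had an unadjusted p under 0.05, where 6.73% of genes did, and edgeR, limma-voom and DESeq2 each called 0 genes. A test of any difference among the 4 groups called 0 of 20144 genes by edgeR and by limma-voom and 74 by DESeq2, none of them among the 10, and ahsg2 was the 1 gene of the 10 with an unadjusted p under 0.05, where 9.83% of genes had one (edgeR adjusted p = 0.484).

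The genes varied together across libraries, less so without control replicate 2. As a description, log2 CPM was correlated over the 45 pairs of the 10 genes across the same 15 libraries, which differ in depth. The median was 0.58 with all 15 and 0.36 without control replicate 2. The neighbours fga and fgb were the closest pair, at r = 0.94 and at 0.78 without it. The least alike were cp and fgg, at −0.09 and at −0.69 without it. Against the mean of the other 9 genes, c9 was at 0.92 and fgb at 0.88, whereas fgg was at 0.43 and rbp4 at 0.31, and without control replicate 2 fgg was at 0.02 and rbp4 at 0.33.

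Within groups, the SD of log2 CPM ran from 0.26 for serpina1 to 0.47 for rbp4, where genes of similar level had medians of 0.24 to 0.29. Without control replicate 2 it was 0.12 for fgb and 0.17 for fga, and it was 0.49 for rbp4. The mean deviation of the 10 genes from their own means over libraries was −0.83 on the log2 scale in control replicate 2 and between −0.21 and 0.33 in the other 14 libraries. Its group mean was 0.18 in AVS high, 0.01 in AVS low and −0.10 in Afid low, against −0.12 in the control, or 0.12 in the control without replicate 2.

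**Figure D5:**
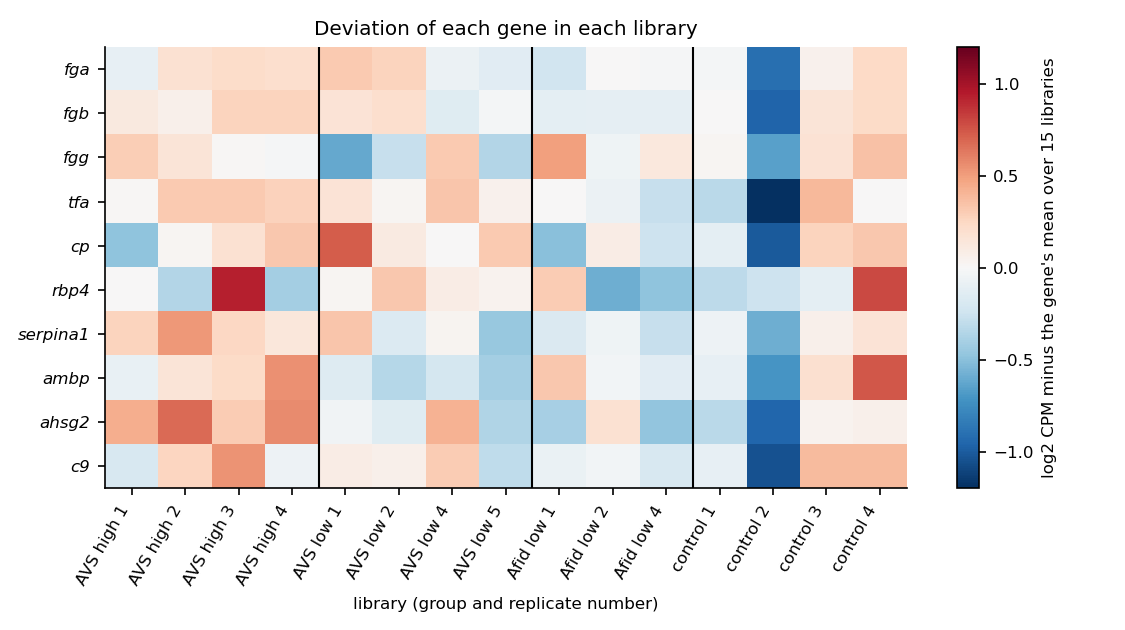
Deviation of log2 CPM of each gene (rows) from its mean over 15 libraries (columns, by group and replicate number), red above and blue below the mean. Control replicate 2 is blue in all 10 rows, with a mean deviation of −0.83, and the strongest reds of rbp4 are in AVS high replicate 3 and control replicate 4.

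Several of the genes most like the 10 in pattern encode other plasma proteins. By Pearson correlation of log2 CPM with the mean deviation of the 10 genes over 15 libraries, the nearest genes with a mean of at least 20 reads included serpinf2b (alpha-2 antiplasmin, 0.96), f7 (coagulation factor VII, 0.95), ckba (a creatine kinase, 0.94), gc (the vitamin D binding protein, 0.93), si:ch211-262h13.5 (0.93), serpina1l (0.93) and c8a (a chain of complement C8, 0.90). Without control replicate 2 these ran from 0.75 to 0.87. Over 15 libraries, likeness was not particular to lists of liver genes, as exocrine pancreas and intestine had the highest medians. The yolk syncytial layer list is not apart from the 10 genes, as tfa is in both. The median correlation was 0.72 for the exocrine pancreas list, 0.69 for intestine, 0.67 for the yolk syncytial layer, which includes tfa, 0.65 for coagulation, 0.56 for hepatocyte enzymes, 0.52 for carriers and 0.45 for complement, against −0.01 over all genes. Without control replicate 2 it was 0.27 for exocrine pancreas, 0.10 for intestine and 0.62 for the yolk syncytial layer. It was then 0.28 for coagulation, 0.25 for hepatocyte enzymes, 0.14 for carriers and −0.12 for complement. For interleukin-6 and acute phase signalling it was 0.41, or 0.32 without that library. Hepatocyte transcription factors were at 0.39, or 0.03 without it. Macrophages and neutrophils were at 0.22 (−0.05 without it) and neurons at −0.46 (−0.17 without it). The nearest genes to rbp4 alone, looked up after its values were seen, were tmem176 (0.92) and prdx1 (a peroxiredoxin, 0.92). For fgg alone the nearest was serpinf2a (0.89), and for ahsg2 alone serpina1 (0.84), gc (0.84) and the fetuin fetub (0.83).

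Other genes of the same pathways were read from lists, and edgeR called 0 genes of any list in any comparison. Without control replicate 2, a setting added for the lists after the data were seen, edgeR again called 0, and 50.4% of all genes were above 0 in AVS high, 48.7% in AVS low and 50.5% in Afid low. Of coagulation and fibrinolysis, 14 of 17 tested genes were above 0 in AVS high (median log2 fold change 0.25), 12 of 18 in AVS low (0.14) and 10 of 18 in Afid low (0.01). These were 11 of 17 (0.11), 8 of 18 (−0.03) and 6 of 18 (−0.17) without control replicate 2. The most abundant of that list were plg (plasminogen, 60.3 FPKM) and serpinf2b (27.1 FPKM). Its smallest unadjusted p-values were those of f13a1b and f9b. The factor XIII subunit f13a1b had 16.3 ± 2.38 CPM in AVS low and 8.62 ± 2.51 CPM in the control (SD, n = 4 each; log2 fold change 0.92, or 0.82 without control replicate 2, edgeR adjusted p = 0.464 with all libraries). The factor IX gene f9b, at a low level, had 4.43 ± 0.509 CPM in Afid low (SD, n = 3) and 1.26 ± 0.791 CPM in the control (SD, n = 4). Its log2 fold change was 1.80 (edgeR adjusted p = 0.688), or 1.47 without control replicate 2. The lowest value of the list in Afid low was −1.49.

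Of complement, 12 of 22 tested genes were above 0 in AVS high (median 0.03), 10 of 22 in AVS low (−0.03) and 20 of 24 in Afid low (0.21). Without control replicate 2 they were 5 of 23 in AVS high (−0.20), 5 of 24 in AVS low (−0.14) and 11 of 24 in Afid low (−0.02), so the count in Afid low rested on that library. Its summed complement level was 305 CPM, against 981 to 1201 CPM in the other control libraries. In Afid low, c4 and c1s, of the classical pathway, were at log2 fold changes of 0.89 and 1.12 (edgeR adjusted p = 0.688 and 0.725), or 0.84 and 0.77 without control replicate 2. Both were at low levels. Mean CPM in Afid low and the control were 3.79 and 2.04 for c4, and 0.873 and 0.399 for c1s. The leading complement genes c3a.1 and c3a.3 averaged 72.6 and 27.2 FPKM. Of the other carriers and secreted liver proteins, 9 of 21 were above 0 in AVS high (median −0.03), 10 of 21 in AVS low (−0.02) and 12 of 21 in Afid low (0.06). The same counts were 7 of 21 (−0.22), 3 of 21 (−0.30) and 5 of 21 (−0.15) without control replicate 2. That list holds the paralogs of the 10 genes. The fetuin fetub, the most abundant at 1274 FPKM, had 4803 ± 415 CPM in AVS high and 3506 ± 921 CPM in the control (SD, n = 4 each), at a log2 difference of 0.45 (edgeR adjusted p = 0.591), or 0.28 without control replicate 2. The fetuin ahsg1 was at 0.32 and serpina1l, which averaged 223 FPKM, at 0.20 in AVS high, or 0.11 and 0.01 without that library. The paralog rbp4l was at −0.59 in Afid low (edgeR adjusted p = 0.688), or −0.51 without control replicate 2.

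Hepatocyte enzymes and markers were above 0 in 19 of 24 genes in AVS high (median 0.23), 14 of 24 in AVS low (0.07) and 10 of 24 in Afid low (−0.05). Leaving out control replicate 2 gave 12 of 24 (−0.01), 7 of 24 (−0.10) and 3 of 24 (−0.25). The liver marker fabp10a was at −0.23 in AVS high, −0.38 in AVS low and −0.80 in Afid low (245 ± 69.7 CPM in Afid low, SD, n = 3, and 425 ± 141 CPM in the control, SD, n = 4; edgeR adjusted p = 0.688), and bhmt was at −0.70 in Afid low. In the fits without control replicate 2, fabp10a was at −0.26 in AVS high, −0.41 in AVS low and −0.83 in Afid low, and bhmt at −0.80 in Afid low. Hepatocyte transcription factors were above 0 in 8 of 10 genes in AVS high (median 0.19), 10 of 11 in AVS low (0.33) and 7 of 11 in Afid low (0.18), with foxa3 at 0.89 in AVS low and prox1a at −0.38 in AVS high. With control replicate 2 left out the counts were 3 of 10 (−0.06), 9 of 11 (0.23) and 5 of 11 (−0.04), with foxa3 at 0.60 in AVS low and prox1a at −0.39 in AVS high. Of interleukin-6 and acute phase signalling, 11 of 14 genes were above 0 in AVS high (median 0.14), 8 of 14 in AVS low (0.08) and 8 of 14 in Afid low (0.03). These were 10 of 14 (0.09), 7 of 14 (−0.00) and 4 of 14 (−0.08) without control replicate 2. The name irf1b, an interferon regulatory factor, stands for 2 gene entries. In AVS low the less abundant, ENSDARG00000043249 (3.85 FPKM), was at 1.23 (edgeR adjusted p = 0.464), and the other, ENSDARG00000110357 (42.3 FPKM), was at −0.10 (edgeR unadjusted p = 0.699). In AVS low, stat3, the mediator of interleukin-6 signals, was at 0.71 (edgeR adjusted p = 0.471), and cebpd, the most abundant of that list, averaged 417 FPKM. Without control replicate 2, the AVS low values were 0.99 and −0.14 for these irf1b entries and 0.50 for stat3.

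Lists of other tissues and cells are given beside these values, and 0 of their genes passed the test. The yolk syncytial layer list is not apart from the liver, as it shares tfa with the 10 genes. It also shares hnf4a with the list of hepatocyte transcription factors, but hnf4a was not among the 7 genes tested. Yolk syncytial layer genes, tfa among them, were above 0 in 7 of 7 in AVS high (median 0.25), 6 of 7 in AVS low (0.32) and 4 of 7 in Afid low (0.02), with apoa1b at −0.54 in Afid low and slc40a1, an iron exporter, at 0.32 in AVS low. The same counts were 3 of 7 (−0.03), 5 of 7 (0.07) and 3 of 7 (−0.15) without control replicate 2, with apoa1b at −0.67 in Afid low and slc40a1 at 0.34 in AVS low. Intestine genes were above 0 in 10 of 13 in AVS high (0.39), 10 of 13 in AVS low (0.57) and 9 of 13 in Afid low (0.24). Leaving out control replicate 2 gave 8 of 13 (0.04), 10 of 13 (0.24) and 6 of 13 (−0.06). In that list cubn was at 0.90 in AVS low and cdx1a at 0.63 in AVS high, or 0.75 and 0.43 without control replicate 2. The genes chia.2 and fabp6 averaged 581 and 457 FPKM. Exocrine pancreas genes were above 0 in 14 of 15 in AVS low (0.55) and 9 of 15 in Afid low (0.02), or 9 of 15 (0.22) and 3 of 15 (−0.32) without control replicate 2. The carboxypeptidases cpb1 and cpa1 were at 1.02 and 1.23 in AVS high with all libraries, or 0.82 and 0.86 without control replicate 2. The trypsins prss1 and prss59.2 averaged 3389 and 2028 FPKM.

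Macrophage and neutrophil genes were above 0 in 7 of 10 in AVS high (0.21), 9 of 10 in AVS low (0.56) and 5 of 10 in Afid low (0.04), with lcp1 at 1.02 in AVS low and spi1b at 1.14 in Afid low. With control replicate 2 left out the counts were 6 of 10 (0.05), 9 of 11 (0.56) and 4 of 10 (−0.06), with lcp1 at 0.80 in AVS low and spi1b at 1.16 in Afid low. Both lcp1, at 7.88 FPKM, and csf1ra, at 5.49 FPKM, led that list in level. Neuron genes were above 0 in 3 of 15 in AVS high (−0.19), 1 of 15 in AVS low (−0.26) and 2 of 15 in Afid low (−0.17). These were 6 of 15 (−0.08), 3 of 15 (−0.15) and 6 of 15 (−0.07) without control replicate 2. In that list slc17a6a was at −0.98 and elavl3 at −0.72 in AVS high with all libraries, or −1.04 and −0.67 without control replicate 2. The genes snap25a and snap25b averaged 175 and 114 FPKM. In control replicate 2 the summed level was 746 CPM for the intestine list, 2609 CPM for the exocrine pancreas list and 4561 CPM for the neuron list, and the other 14 libraries held 2239 to 4352, 6724 to 24952 and 2498 to 3577 CPM of these lists. The part of these cells in the values of the plasma protein genes was not tested.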

How the data were processed

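Per the labels' protocols, poly(A) RNA of whole larvae was made into directional libraries. The authors used fastp, HISAT2, featureCounts and DESeq2, per the submitters' processing notes, which state no versions. The build of the genome and the strand option of the counting were not given in the sources used here. Of the deposited tables, 3 hold, per the file headers, raw read counts and FPKM per gene and library, beside the same 4 control libraries (counts differed in 0 genes between tables). All 4 deposited tables hold the authors' log2 fold change and p-value, and for Afid high only these were used. The 23 further columns of normalized values per library were not used. In the Afid high table an adjusted p of 1 stands for 89.2% of genes and was read as not given.

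Counts were tested with edgeR 4.0.16 (quasi-likelihood, TMM, filterByExpr) in R 4.3.3, over all genes, and called genes had a Benjamini-Hochberg adjusted p under 0.05. Each exposure was fitted with the control, and exposed groups with each other in 1 fit of 15 libraries, whose TMM-scaled CPM are the values per library. CPM means of list genes are from the fit of their comparison. Standard errors are the size of the log2 fold change over the square root of edgeR's F. DESeq2 1.42.0, limma-voom (limma 3.58.1), other scaling, no filter, a replicate block and leaving out libraries were alternatives. Steps were tested on counts simulated for each exposure against the control, with the same spread for all genes and no outlying library. At a true log2 difference of 1, edgeR called 81% of changed genes in AVS high, 76% in AVS low and 58% in Afid low. At a true log2 difference of 2 it called 100% in each. Counts of the 21 pairs of libraries within groups differed beyond sampling noise (chi-square per degree of freedom of at least 7.76), so none of these pairs differed by sampling of reads alone. Separate libraries made from the same RNA can also differ beyond that noise, so they cannot be told from this. Pairs across groups and the Afid high libraries were not compared in this way.

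Lists numbered 11 (203 genes, 180 in a table). The genes and lists were chosen with earlier results of these data known. List genes named are the 2 of smallest p and the 2 most abundant of a list, plus paralogs and fabp10a, hnf4a and cebpa, which were chosen after their values were seen. Log2 CPM used a prior count of 2. Of the genes most alike in pattern, 1 is not reported here.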

Additional observations from a re-analysis of the deposited data

Results flagged for a closer look

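In 30 groups of 4 libraries (10 genes in AVS high, AVS low and the control), 3 held a library set apart from the other 3 by more than Dixon's 95% critical value for the gap over the range, which chance gives in about 1 group of 20. In AVS high replicate 1, fga had 206 CPM, against 250.5 to 258 CPM in the other AVS high libraries (gap over range 0.862). The same library had 508 CPM of tfa, against 610.2 to 626 CPM (0.869). In control replicate 4, rbp4 had 1149.9 CPM, against 531 to 612 CPM in the other control libraries (0.870). Control replicate 2, the lowest library for 9 genes, did not reach that value in any of them.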

How the results depend on the processing

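None of the 10 genes was called under any alternative, in 810 recomputed values of single genes, and the smallest adjusted p was 0.130 (ahsg2, AVS high against control, DESeq2). DESeq2 called more genes overall than edgeR's 0: 61 in AVS high, 45 in AVS low and 15 in Afid low against the control, 5 in AVS high against AVS low and 74 for any difference. With all listed genes kept, edgeR called 2 in AVS high, and without control replicate 4 it called 1 in Afid low, so leaving out libraries gave 0 to 1 genes there. The cause was not tested. By limma-voom, the log2 fold change turned to 0.00880 for c9, 0.020 for ambp and 0.045 for fgb in Afid low, and to −0.076 for rbp4 in AVS high against AVS low.

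Same-numbered libraries of an exposure and the control had deviations correlated at −0.09, 0.15, 0.09 and 0.04 in AVS high, −0.26, −0.28 and −0.18 in AVS low, and −0.21, 0.03 and −0.11 in Afid low. In every exposed group, some library correlated better with a control library of another number. AVS low replicate 5 had no control library of its number. Whether the numbers mark a shared batch is not given in the labels and cannot be told from so few libraries. With the replicate number as a block, edgeR still called 0 genes. Then cp turned to 0.046, serpina1 to 0.0025, c9 to 0.16, ambp to 0.083 and fgb to 0.14 in Afid low, and tfa to −0.046, fga to −0.10, c9 to −0.14 and rbp4 to −0.22 in AVS high against AVS low. The median of the 10 genes was 0.35 in AVS low and 0.15 in Afid low with the block. A library without a same-numbered one in its fit adds nothing to a blocked difference. This held for control replicate 3 in AVS low and Afid low against the control, and for AVS low replicate 5 wherever AVS low was fitted.

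Leaving out 1 library turned the sign of 44 values. In AVS high the log2 fold change ran from −0.075 to 0.31 for c9, −0.068 to 0.21 for fgg, −0.087 to 0.38 for ambp, −0.13 to 0.24 for cp and −0.36 to 0.36 for rbp4. In AVS low it ran from −0.077 to 0.25 for fgb, −0.10 to 0.16 for serpina1, −0.19 to 0.20 for c9 and −0.10 to 0.35 for rbp4. In Afid low it ran from −0.64 to 0.046 for rbp4, −0.36 to 0.020 for cp, −0.21 to 0.024 for serpina1, −0.33 to 0.068 for c9, −0.15 to 0.31 for tfa, −0.25 to 0.24 for ambp, −0.23 to 0.10 for fgb, −0.18 to 0.18 for ahsg2 and −0.16 to 0.18 for fga. In AVS high against AVS low it ran from −0.039 to 0.12 for fga, −0.015 to 0.23 for c9 and −0.34 to 0.16 for rbp4, and in AVS low against Afid low from −0.041 to 0.24 for serpina1. The value of ahsg2 in AVS high stayed between 0.58 and 0.87. With 3 or 4 libraries a group, the 95% intervals of the 10 genes reached 0.39 to 0.69 on the log2 scale to either side of the estimate.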
